A study of Homo sapiens with 94 samples.

Results

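The keratin gene family was examined in xenograft tumors of NCI-H226, a human malignant pleural mesothelioma cell line that lacks the tumor suppressor NF2. Members were chosen by symbol, as every gene whose symbol is KRT followed by a number and at most 1 letter. There were 55 such genes among the 20239 gene IDs of the table. The family was taken up because KRT34 was among the genes most lowered 24 h after dosing, so the values of KRT34 at 24 h are given as a description, with no test.

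Tumors grew subcutaneously in young female CB17 SCID mice, which lack T and B cells and still have innate immune cells and stroma of their own. The mice received a single oral dose of K-975 at 30, 100 or 200 mg/kg, the vehicle alone (ethanol, Solutol and glucose for injection), or nothing. K-975 is a covalent inhibitor of TEAD, the transcription factor partner of YAP1, and binds in the palmitoylation pocket of TEAD. The volume was 20 mL/kg for vehicle and the highest dose and 10 mL/kg for the lower doses. Tumors were collected in 3 separate studies, at 1 h, at 3-6 h and at 24 h, so time and study coincide. Groups held 5 tumors at 1 h and at 24 h, with 4 for vehicle at 24 h. At 3-6 h the vehicle and each dose held 10 tumors, split evenly over 2 cage groups. Which of these was taken at 3 h and which at 6 h is not given by the labels. Each study had 5 untreated tumors. At 1 h and at 24 h the cage and the treatment cannot be told apart.

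The values are FPKM, fragments scaled to transcript length and library total, from RNA libraries enriched with capture probes. Of 94 libraries, 3 had fewer than 10000 genes at an FPKM of at least 1 and stand apart: 30 mg/kg at 24 h replicate 1, 100 mg/kg at 24 h replicate 5 and 200 mg/kg at 1 h replicate 1. They were left out of the main results, which rest on 91 libraries with 11344 to 11665 such genes. The relative depth of these 91, read from the values of rarely detected genes, ran from 0.440 to 1.84, and at 24 h from 0.972 to 1.00 in vehicle and from 0.762 to 1.84 at 200 mg/kg. Of 11 markers of mesothelial and mesothelioma cells, 11 had a mean FPKM of at least 1, among them calretinin (CALB2, 613) and mesothelin (MSLN, 261). Of 15 markers of epidermal keratinocytes 6 reached a mean of 1, led by KRT5 (933), DSC3 (18.8) and KRT14 (11.3), with SBSN, KRT10 and KRT15 below these. The other 9 were lower, among them TP63 (0.0496), KRT1 (0.0591), DSC1 (0) and LORICRIN (0), and 1 of 12 markers of the hair matrix reached a mean of 1 (LEF1, 1.56).

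Keratins are the intermediate filament proteins of epithelial cells. A filament is built from pairs of a type I keratin, encoded on chromosome 17 (KRT18 on chromosome 12 is the exception), and a type II keratin, encoded on chromosome 12. Simple epithelia and mesothelium make KRT7, KRT8, KRT18 and KRT19, the basal layer of stratified epithelia makes KRT5 with KRT14, and wounded or hyperproliferative epidermis makes KRT6A, KRT16 and KRT17. KRT34 is a type I keratin of the hair and nail group, which hardens hair shafts. KRT5 and calretinin are used in pathology to mark mesothelioma.

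KRT34 (ENSG00000131737.5) lies at chr17:41377649-41382403 (GRCh38), within a run of type I hair keratin genes that includes KRT33A, KRT33B and KRT31. The promoters of these 4 neighbours are shown because they sit side by side while KRT34 alone was expressed among them. Each runs from 250 bases before to 50 bases after the RefSeq start (GRCh38.p14, minus strand, 5′ to 3′), at chr17:41382257-41382556 for KRT34, chr17:41369764-41370063 for KRT33B, chr17:41350779-41351078 for KRT33A and chr17:41397559-41397858 for KRT31. Capitals mark TATAAA, the TATA box letters.
KRT34: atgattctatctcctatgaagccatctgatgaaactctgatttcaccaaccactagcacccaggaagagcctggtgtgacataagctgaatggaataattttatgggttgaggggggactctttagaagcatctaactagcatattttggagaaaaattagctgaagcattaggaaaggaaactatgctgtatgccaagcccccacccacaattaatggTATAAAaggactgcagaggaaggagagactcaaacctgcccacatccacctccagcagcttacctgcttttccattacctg
KRT33B: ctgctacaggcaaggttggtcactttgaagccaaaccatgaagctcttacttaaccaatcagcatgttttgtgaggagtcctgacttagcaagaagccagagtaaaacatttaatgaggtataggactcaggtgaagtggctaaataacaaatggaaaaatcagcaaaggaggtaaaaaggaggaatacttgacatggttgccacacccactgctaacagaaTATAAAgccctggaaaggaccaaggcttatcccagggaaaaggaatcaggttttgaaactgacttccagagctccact
KRT33A: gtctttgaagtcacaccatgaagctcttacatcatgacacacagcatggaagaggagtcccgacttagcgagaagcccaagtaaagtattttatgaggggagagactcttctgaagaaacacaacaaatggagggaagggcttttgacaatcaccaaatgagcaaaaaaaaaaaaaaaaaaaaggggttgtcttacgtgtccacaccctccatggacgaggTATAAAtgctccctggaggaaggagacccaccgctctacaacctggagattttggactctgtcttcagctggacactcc
KRT31: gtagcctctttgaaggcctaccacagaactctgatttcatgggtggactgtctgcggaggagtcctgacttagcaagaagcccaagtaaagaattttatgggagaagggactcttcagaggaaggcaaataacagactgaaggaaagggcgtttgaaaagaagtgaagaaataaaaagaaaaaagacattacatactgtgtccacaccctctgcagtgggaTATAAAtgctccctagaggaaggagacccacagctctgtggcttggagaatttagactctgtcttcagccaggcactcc

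The TATAAA began 31 bases before the start in KRT34, 28 in KRT33B, 29 in KRT33A and 29 in KRT31. Windows were found for 34 of the 55 keratins, 5 of them expressed. TATAAA on the strand of the gene, 20 to 40 bases before the start, was in 16 of the 34, and in 2.30% of all 35116 promoters of this length. The core of the TEAD site, CATTCC on either strand, was in 6 of the 34 keratin windows and in 14.0% of all promoters. Among the 5 expressed keratins with a window, KRT8 held it and KRT34, KRT5, KRT10 and KRT4 did not. The AP-1 site TGANTCA, which reads the same on both strands, was in 0 of the 34 and in 7.71% of all promoters. These matches describe the letters of a short window only.

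KRT8, a type II keratin of simple epithelia, is the expressed keratin with the CATTCC letters. Its window is chr12:52926420-52926719 (GRCh38.p14, minus strand), with the motif in capitals as it reads on the strand of the gene. This window lies inside the KRT8 locus (chr12:52897186-52949920), and which start these tumors use was not tested.
KRT8: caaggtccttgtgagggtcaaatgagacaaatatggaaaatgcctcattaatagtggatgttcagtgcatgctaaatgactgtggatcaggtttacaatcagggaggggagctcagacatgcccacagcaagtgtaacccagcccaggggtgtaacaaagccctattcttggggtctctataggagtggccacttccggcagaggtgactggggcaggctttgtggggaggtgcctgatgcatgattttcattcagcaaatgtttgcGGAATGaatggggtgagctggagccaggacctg

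Of the 55 keratins, 14 had a mean FPKM of at least 1 and are called expressed, 7 on chromosome 12 and 7 on chromosome 17. A mesothelial set with a basal keratin on top made up nearly all keratin RNA. KRT5 was highest with a mean of 933 FPKM over the 91 tumors, followed by KRT18 with 705, KRT7 with 512, KRT19 with 494 and KRT8 with 362. These 5 took between 94.5% and 97.2% of the summed keratin FPKM of a tumor, with a median of 96.1%. All keratins together took between 0.395% and 0.819% of the FPKM of a library.

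The other 9 expressed keratins lay between 1 and 300 FPKM. KRT80, a type II keratin of differentiating epithelia, had a mean of 39.9. The wound keratins KRT17, KRT6A and KRT16 had means of 25.4, 12.3 and 7.95. KRT14, the type I partner of KRT5 in basal epidermis, had a mean of 11.3, so KRT5 was far above its usual partner on this per-length scale. KRT34 had a mean of 12.3 and ranged from 2.05 to 38.8, which placed it eighth. KRT10 of the suprabasal epidermis had 3.68, KRT4 of the esophageal and oral lining 2.82, and KRT15 of basal cells 2.35. FPKM corrects for length and not for how well the probes of a gene capture it.

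Just inside the limit of 1 were KRT4 and KRT15, and just outside were KRT75 with a mean of 0.908 FPKM and KRT86 with 0.864. The classes were unevenly present. Of the simple epithelial keratins, 2 of 2 type II and 2 of 3 type I genes were expressed, as were 3 of 3 basal epidermal and 3 of 5 stress and wound genes. Of the hair and nail keratins, 1 of 11 type I genes (KRT34) and 0 of 6 type II genes were expressed. Of the keratins of the inner root sheath and companion layer, 0 of 9 were. In 10 keratins the value was 0 in each of the 91 libraries, among them KRT20, KRT12 and KRT85.

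**Figure D1:**
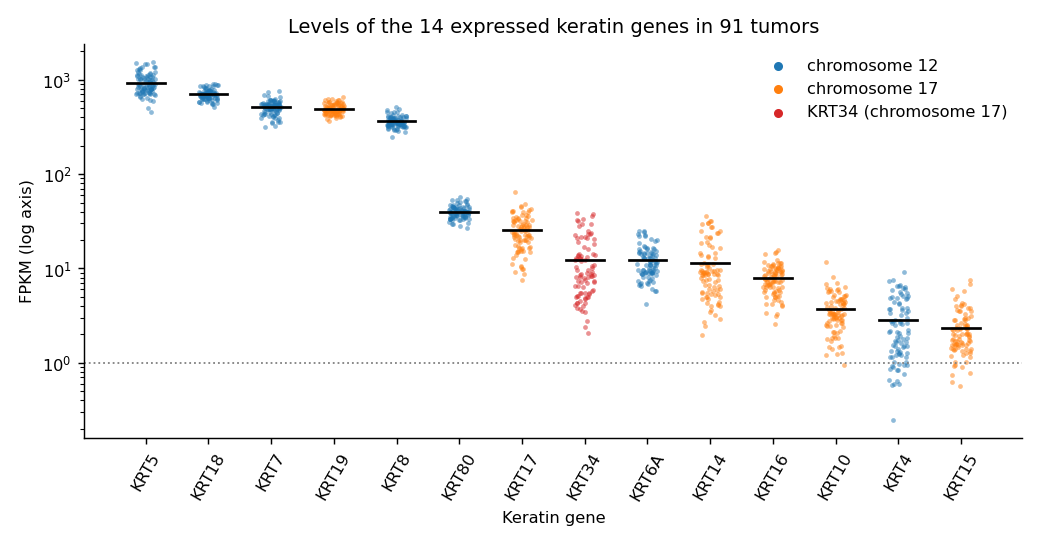
FPKM (log axis) of the 14 expressed keratins, with 1 point per tumor (91 tumors), the mean as a bar and the limit of 1 FPKM as a dotted line. 5 keratins lie above 300 FPKM, while KRT34 spans 2.05 to 38.8.

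KRT34 stood nearly alone among hair keratins. Its neighbour KRT33B had a mean of 0.746 FPKM, KRT31 0.0615 and KRT33A 0.0114. The type II hair keratins KRT86 and KRT81 had means of 0.864 and 0.662. Some of these genes share sequence: 11.4% of the 50-base stretches of the longest KRT34 transcript (GENCODE 29) also occur in KRT33B, KRT33A or KRT31, against 39.1% for KRT6A (mostly KRT6C and KRT6B) and 44.6% for KRT81 (mostly KRT86). How the authors assigned shared fragments is not given in the sources used here. Values of KRT34, KRT6A, KRT14, KRT16, KRT17, KRT18, KRT33B, KRT81 and KRT86 are thus uncertain (between 11.4% and 44.6% of stretches shared). These shares do not bound the error, which also depends on the levels of the genes that share the sequence. The loci of KRT8 and KRT18 overlap, as do those of KRT81 and KRT86.

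Genes were tested if 4 or more libraries reached an FPKM of 1, which kept 13036 genes, 21 keratins among them, and left out 34 keratins. Change was measured as the difference of mean log2(FPKM + 1), fitted with limma over all groups, with p-values adjusted by Benjamini-Hochberg over the 13036 genes and a limit of 0.05. In bulk tumors fewer cells of a type and less RNA per cell cannot be told apart. All comparisons at one time share the same vehicle tumors.

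At 24 h, KRT34 was low in the dosed tumors. The 4 vehicle tumors had 25.2, 28.0, 33.6 and 16.15 FPKM. At 200 mg/kg the 5 tumors had 2.77, 13.0, 3.71, 4.35 and 2.05. Each was below the lowest vehicle tumor, and replicate 2 lay well above the other 4. At 100 mg/kg 3 of the 4 tumors were at 5.36, 4.30 and 4.48 and replicate 4 was at 19.0, within the vehicle range. At 30 mg/kg the 4 tumors had 5.01, 13.4, 10.2 and 8.18, all below the lowest vehicle tumor. The 2 libraries left out at this time had 7.68 at 100 mg/kg and 0 at 30 mg/kg.

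The mean log2 difference of KRT34 from vehicle at 24 h was -2.30 (SE 0.413) at 200 mg/kg, -1.73 (SE 0.436) at 100 mg/kg and -1.42 (SE 0.436) at 30 mg/kg. Against the 5 untreated tumors of the same study, which had 21.2, 9.00, 21.35, 12.9 and 38.8 FPKM, the log2 differences were -1.88, -1.32 and -0.998. Untreated tumors overlapped the dosed ones: replicate 2 at 200 mg/kg, with 13.0, was above 2 of the untreated tumors. Without 1 library at a time, the value at 200 mg/kg ran from -2.65 to -2.10. KRT34 was chosen by these same 24 h values, so the SEs and this range only describe them.

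**Figure D2:**
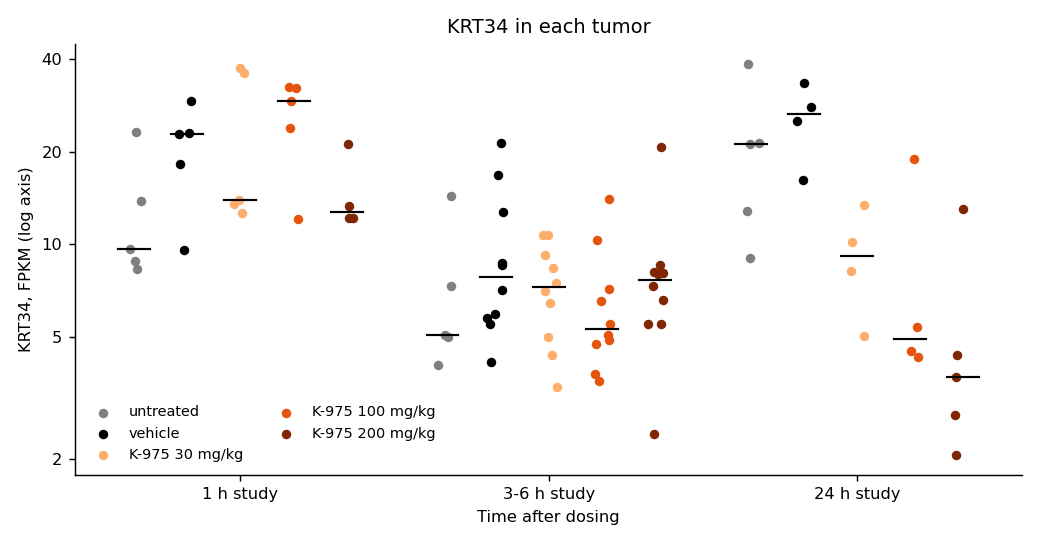
KRT34 in FPKM (log axis) in each tumor of the 1 h, 3-6 h and 24 h studies, by treatment, with the group median as a bar. At 24 h the 5 tumors at 200 mg/kg lie at 2.05 to 13.0 FPKM and the 4 vehicle tumors at 16.15 to 33.6, while at 3-6 h the groups overlap.

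Earlier times were not used to choose KRT34 and were tested. At 3-6 h the 10 vehicle tumors had a lowest, median and highest value of 4.14, 7.84 and 21.4 FPKM. The corresponding values were 2.41, 7.64 and 20.7 at 200 mg/kg, 3.57, 5.28 and 14.1 at 100 mg/kg and 3.43, 7.25 and 10.75 at 30 mg/kg. The groups overlapped throughout. The log2 differences from vehicle were -0.22 (SE 0.276, limma adjusted p = 0.926), -0.44 (SE 0.276, adjusted p = 0.610) and -0.28 (SE 0.276, adjusted p = 0.881), and none passed. No cage group taken alone passed either, with differences between -0.49 and -0.06 over the 6 cage groups.

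At 1 h the vehicle tumors had 9.56, 22.9, 29.3, 23.0 and 18.3 FPKM of KRT34. At 200 mg/kg the 4 tumors had 12.2, 21.2, 13.3 and 12.2, and the library left out had 46.4. At 100 mg/kg the tumors had 29.3, 12.05, 32.5, 32.2 and 23.9, and at 30 mg/kg 37.4, 13.6, 13.9, 36.2 and 12.7. All 4 groups overlapped. The log2 differences were -0.41 (SE 0.413), 0.33 (SE 0.390) and 0.05 (SE 0.390), with limma adjusted p-values of 1, 0.970 and 1.

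Baseline KRT34 differed between studies. In untreated tumors the mean was 12.8 ± 6.24 FPKM (SD, n = 5) at 1 h, 7.15 ± 4.21 (n = 5) at 3-6 h and 20.7 ± 11.5 (n = 5) at 24 h. The 3-6 h tumors were lower than the 24 h tumors by a log2 difference of -1.38 (SE 0.390, limma adjusted p = 0.0261), with 4 of 5 below the lowest 24 h tumor. The 3-6 h and 1 h tumors did not pass (-0.78, SE 0.390, adjusted p = 0.536), nor did 24 h and 1 h (0.59, adjusted p = 0.624). Over vehicle and untreated tumors together, KRT34 ran from 4.04 to 21.4 FPKM in the 15 tumors of the 3-6 h study and from 9.00 to 38.8 in the 9 of the 24 h study. Of the dosed tumors of 24 h, 3 of 5 at 200 mg/kg (2.77, 3.71 and 2.05) lay below the control range of the 3-6 h study, while the other 2 and all 4 at 100 and at 30 mg/kg lay within it.

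In the same comparison of untreated tumors, 3 of 21 keratins passed, where 4.36% of all genes did. KRT4 had 4.89, 6.58, 4.30, 2.86 and 5.64 FPKM at 3-6 h against 1.34, 1.26, 0.247, 0.589 and 0.966 at 24 h. These ranges did not overlap, with a log2 difference of 1.64 (SE 0.300, limma adjusted p = 0.00078). KRT18 had a mean of 774 ± 61.6 FPKM at 3-6 h and 642 ± 97.1 at 24 h, n = 5 each, a log2 difference of 0.28 (adjusted p = 0.0463). None of 21 keratins passed between the other pairs of studies, where 0.0997% (3-6 h and 1 h) and 0.00767% (24 h and 1 h) of genes did. At an unadjusted p under 0.05 there were 5 and 1 keratins. These comparisons between studies were chosen after the values had been seen.

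Vehicle was compared with no treatment in each study. Against untreated tumors 0 of 21 keratins passed in limma at 1 h, 3-6 h and 24 h, where 0% of all genes did, and 0 keratins were at an unadjusted p under 0.05. KRT8 at 1 h had 347 to 405 FPKM in vehicle and 299 to 342 in untreated tumors (0.18, SE 0.0989, adjusted p = 1), which made it the 1 of 14 expressed keratins without overlap, where 0.851% of all genes had none. At 3-6 h and 24 h 0 of 14 were without overlap, where 0.0844% and 1.28% of all genes were. KRT34 was higher in mean in vehicle than in untreated tumors in each study, by log2 differences of 0.67, 0.36 and 0.42 at 1 h, 3-6 h and 24 h, with SEs of 0.390, 0.337 and 0.413. The vehicle tumors of 24 h took part in the choice of KRT34, which favours a high vehicle level. The 24 h value of KRT34, and its part in the 24 h counts, are thus a description with no test.

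Apart from KRT34, 2 of 20 keratins passed at 24 h after 200 mg/kg, KRT19 and KRT6A, where 7.41% of all genes passed. The comparison is the one that drew attention to the family, so the count is a description. The median log2 difference of the 20 was 0.01, and that of all genes 0.04. KRT19, a type I keratin of simple epithelia, rose from 438, 419, 424 and 404 FPKM in vehicle to 655, 515, 473, 472 and 534. All 5 dosed tumors were above all 4 vehicle tumors, with a log2 difference of 0.32 (SE 0.0977, limma adjusted p = 0.0314). Against untreated tumors KRT19 also passed (0.30, adjusted p = 0.0293), as 1 of 20 keratins where 8.31% of all genes passed.

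KRT6A, a type II keratin of wounded epidermis, fell. Vehicle tumors had 14.8, 14.4, 16.2 and 16.1 FPKM and those at 200 mg/kg had 6.62, 8.98, 9.71, 6.13 and 8.58. The ranges did not overlap, and the log2 difference was -0.88 (SE 0.271, limma adjusted p = 0.0328). Untreated tumors had 14.2, 14.8, 9.195, 9.02 and 12.9, which reached the dosed range, and against them KRT6A did not pass (-0.52, SE 0.255, adjusted p = 0.206).

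Both calls were close to the limit. KRT19 lost the call on leaving out any 1 of the 4 vehicle tumors or replicate 1 or 5 at 200 mg/kg, with differences between 0.24 and 0.36. KRT6A lost it on leaving out any 1 of the 4 vehicle tumors or replicate 1, 4 or 5, with differences between -0.95 and -0.80. With all 94 libraries in the fit neither passed (adjusted p = 1 and 0.946).

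KRT7 and KRT5 were also without overlap at 200 mg/kg but did not pass. KRT7, the type II partner of KRT19 in simple epithelia, had 374 to 435 FPKM in vehicle and 501 to 548 at 200 mg/kg, a log2 difference of 0.33 (SE 0.148, limma adjusted p = 0.163). KRT5 had 669 to 803 in vehicle and 881 to 1265 at 200 mg/kg, a difference of 0.51 (SE 0.226, adjusted p = 0.157). In all, 4 of the 13 expressed keratins other than KRT34 had groups that did not overlap, 3 higher and 1 lower, where 7.45% of all genes had. The untreated tumors of this study spread from 327 to 617 FPKM in KRT7 and from 461 to 1126 in KRT5, which covers all 5 dosed tumors in KRT7 and 4 of 5 in KRT5.

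**Figure D3:**
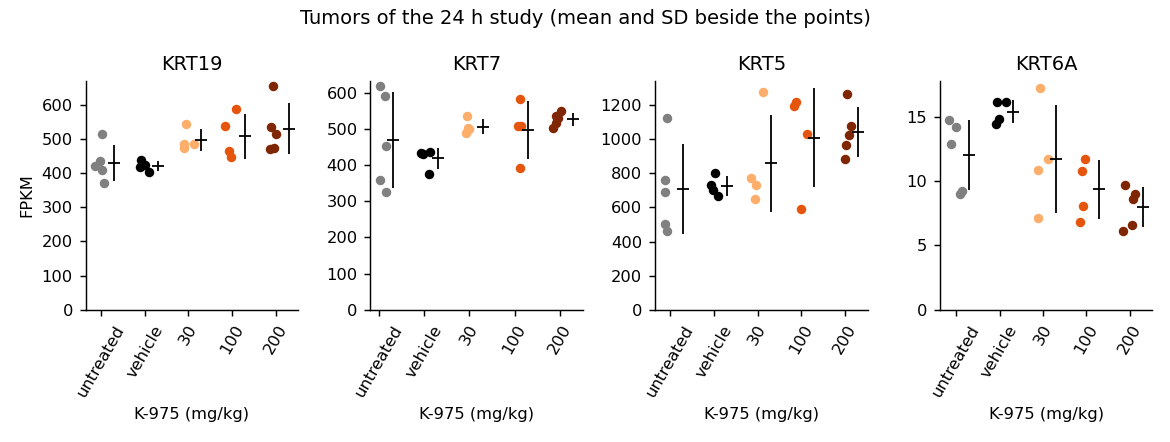
FPKM of KRT19, KRT7, KRT5 and KRT6A in each tumor of the 24 h study, by treatment, with the mean and SD beside the points and axes from 0. At 200 mg/kg KRT19 lies at 472 to 655 against 404 to 438 in vehicle, and KRT6A at 6.13 to 9.71 against 14.4 to 16.2.

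The remaining expressed keratins did not pass at 200 mg/kg. The filament pair KRT8 and KRT18 had means of 310 ± 24.3 and 606 ± 31.7 FPKM (SD, n = 5) against 332 ± 26.8 and 622 ± 42.5 in vehicle (n = 4), log2 differences of -0.10 and -0.04. KRT80 had 40.9 ± 5.02 against 34.6 ± 1.16 (0.23, limma adjusted p = 0.315), with 4 of 5 dosed tumors above all vehicle tumors and 1 below. KRT16 had 9.22 ± 2.25 against 5.97 ± 1.30 (0.54, adjusted p = 0.253), and KRT17 had 20.6 ± 2.28 against 27.4 ± 4.28 (-0.38, adjusted p = 0.529). Of the 3 expressed wound keratins, KRT6A thus passed and KRT16 and KRT17 did not. KRT14 (-0.29), KRT10 (-0.60), KRT4 (0.11) and KRT15 (0.00) gave adjusted p-values of at least 0.276.

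KRT33B, the neighbour of KRT34, was below the limit of expression. It had 0.5, 1.77, 1.55 and 1.61 FPKM in vehicle and 0.156, 1.10, 0.336, 0.883 and 0.183 at 200 mg/kg. The log2 difference was -0.63 (SE 0.258, limma adjusted p = 0.125) and did not pass. A fragment is worth about 0.168 FPKM at this level, as read from the steps in KRT31, so these values rest on few fragments. Of the 50-base stretches of KRT33B, 27.7% also occur in KRT33A, KRT31 or KRT34. The part of fragments from KRT34 in the KRT33B values was not tested.

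At 100 mg/kg and 24 h 0 of 20 keratins other than KRT34 passed in limma, where 1.12% of all genes did, and 4 were at an unadjusted p under 0.05 (KRT33B, KRT19, KRT15 and KRT6A). KRT19 was at 463, 588, 537 and 446 FPKM, above all vehicle tumors (0.26, adjusted p = 0.210), and KRT6A at 6.84, 10.8, 11.7 and 8.095, below all (-0.69, adjusted p = 0.237). These were the 2 of 13 expressed keratins without overlap, where 7.16% of all genes had none. KRT15 had 4.76, 2.93, 4.33 and 7.51 against 1.71, 2.35, 2.95 and 2.52 in vehicle (0.76, adjusted p = 0.247). At 30 mg/kg 0 of 20 keratins passed against untreated tumors, where 0.353% of all genes did, with 4 at an unadjusted p under 0.05. KRT15 at 100 mg/kg passed against untreated tumors (1.16, SE 0.305, adjusted p = 0.0247), as 1 of 20 keratins where 1.99% of all genes passed. At 200 mg/kg KRT15 was at the vehicle level, with 2.03 to 2.98.

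At 30 mg/kg and 24 h 0 of 20 passed in limma, where 0.0384% of all genes did, and 3 were at an unadjusted p under 0.05 (KRT17, KRT33B and KRT19). KRT7 with 488 to 536 FPKM and KRT19 with 474 to 544 lay above all vehicle tumors, 2 of 13 expressed keratins, where 6.74% of all genes did not overlap. Between 200 and 100 mg/kg at 24 h 0 of 20 keratins and 0% of all genes passed, with 2 keratins at an unadjusted p under 0.05.

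**Figure D4:**
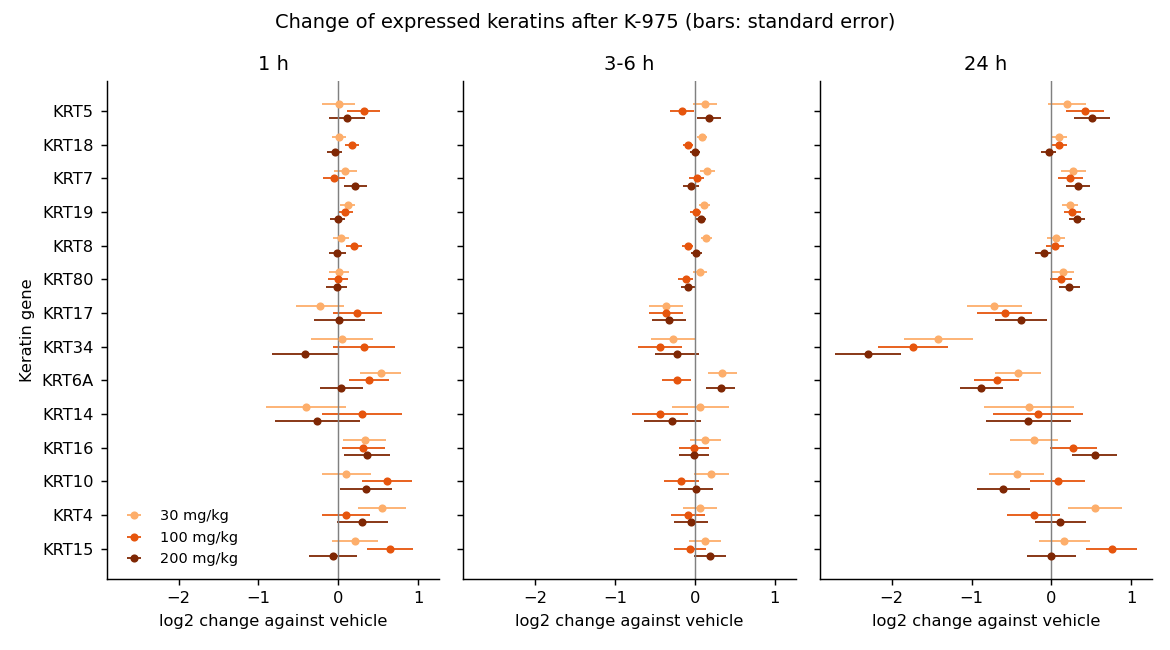
Log2 difference from vehicle of the 14 expressed keratins at 1 h, 3-6 h and 24 h, for 30, 100 and 200 mg/kg, with bars for the standard error. KRT34 at 24 h, the time it was chosen by, lies farthest from 0, at -1.42 to -2.30, while KRT6A at 200 mg/kg and 24 h is at -0.88.

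At 3-6 h 0 of 21 keratins passed at 200, 100 or 30 mg/kg in limma, where 0.069%, 0.43% and 0.0153% of all genes did. At an unadjusted p under 0.05 there were 1 (KRT81), 0 and 1 (KRT8). Differences over the 21 keratins ran from -0.33 to 0.36, from -0.44 to 0.26 and from -0.36 to 0.35. At 1 h 0 of 21 passed at any dose, where 0%, 0.00767% and 0% of all genes did at 200, 100 and 30 mg/kg. At an unadjusted p under 0.05 there were 0, 3 (KRT18, KRT8 and KRT15) and 3 (KRT33B, KRT6A and KRT81). KRT18 at 1 h and 100 mg/kg differed by 0.18 and KRT8 by 0.20 (adjusted p = 0.953 each). The 5 dosed tumors were above all 5 vehicle tumors in KRT18, where 0.828% of all genes had groups that did not overlap. At 200 and 30 mg/kg 0 of 14 expressed keratins were without overlap, where 1.37% and 0.69% of all genes were.

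The further comparisons at these times also gave 0 keratins of 21 in limma. Against untreated tumors at 3-6 h, 0.176%, 0.169% and 0% of all genes passed at 200, 100 and 30 mg/kg, and 1, 2 and 1 keratins were at an unadjusted p under 0.05. At 1 h 0% passed at each dose, with 0, 5 and 3 keratins at that level, KRT34 among the 5 at 100 mg/kg (0.99, adjusted p = 0.480). For single cage groups against vehicle, 0.00767% and 0.276% of all genes passed at 200 mg/kg, 0% and 1.33% at 100 mg/kg and 0% and 0.0307% at 30 mg/kg, with between 0 and 3 keratins at an unadjusted p under 0.05. Between the 2 cage groups of an arm, 0.0153%, 0.046%, 0% and 0.33% of all genes passed at 200, 100 and 30 mg/kg and in vehicle, with 0, 2, 2 and 3 such keratins.

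The change of KRT6A differed between times. At 200 mg/kg its log2 difference from vehicle was 0.32 (SE 0.180, limma adjusted p = 0.730) at 3-6 h and -0.88 at 24 h. The test of the difference between the 2 effects gave -1.20 (SE 0.325, adjusted p = 0.0357), as 1 of 20 keratins where 1.72% of all genes passed. The 24 h effect differed from that at 1 h by -0.92 (SE 0.383, adjusted p = 0.270) and did not pass, nor did any of 20 keratins, where 0.583% of all genes did and 3 keratins were at an unadjusted p under 0.05. For 100 mg/kg the effects at 24 h and 1 h differed in 0 of 20 keratins and 0.138% of all genes, and those at 24 h and 3-6 h in 0 of 20 and 0.0153%, with 1 and 3 keratins at an unadjusted p under 0.05. In the 3-6 h study the vehicle tumors had 6.44 to 16.4 FPKM of KRT6A and those at 200 mg/kg 8.87 to 19.8. Time and study cannot be told apart in this comparison.

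Genes that anchor and surround keratin filaments were described from lists of 4 kinds. Of 14 tested genes of the desmosome and of filament linkers, 3 rose and 0 fell at 24 h after 200 mg/kg, where 7.41% of all genes passed, with a list median of 0.03 beside 0.04 over all genes. JUP (plakoglobin) had a mean of 26.0 ± 4.34 FPKM (SD, n = 5) against 14.9 ± 3.90 in vehicle (n = 4), a log2 difference of 0.77 (limma adjusted p = 0.0288). DSP (desmoplakin), which ties keratin filaments to the desmosome, had 14.3 ± 2.95 against 9.46 ± 0.661 (0.52, adjusted p = 0.0342). DSC3, a desmosomal cadherin, had 20.8 ± 2.86 against 16.7 ± 0.687 (0.29, adjusted p = 0.0233). In each of these 4 of 5 dosed tumors were above all vehicle tumors. PKP2, another desmosomal plaque protein, did not pass (-0.30, adjusted p = 0.270).

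Of 7 tested genes of other intermediate filaments 2 fell, both of the B-type nuclear lamins, where 7.41% of all genes passed, with a list median of -0.19. LMNB2 had 33.7 ± 11.8 FPKM against 59.4 ± 7.74 (-0.85, limma adjusted p = 0.0018) and LMNB1 25.1 ± 7.35 against 41.8 ± 7.85 (-0.73, adjusted p = 0.0169), each with 4 of 5 dosed tumors below all vehicle tumors. VIM, the mesenchymal filament gene, was at 764 ± 86.8 against 772 ± 34.5 (-0.02), and LMNA at 173 ± 17.9 against 164 ± 14.1 (0.08). Of 8 tested regulators of keratin genes 1 rose, where 7.41% of all genes passed, with a list median of 0.10: SOX9 had 13.7 ± 1.38 against 9.45 ± 0.744 (0.49, adjusted p = 0.0296), with 5 of 5 dosed tumors above all vehicle tumors. Of 4 tested genes of the cornified envelope and hair matrix 0 passed in limma, where 7.41% of all genes did, and 1 was at an unadjusted p under 0.05 (SFN, -0.39, adjusted p = 0.118), with a list median of -0.29.

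LMNB2 passed on leaving out any 1 tumor, and the other calls were closer to the limit. LMNB1 lost the call without vehicle replicate 1 or 2 or dosed replicate 1 or 4, DSC3 without vehicle replicate 1, 3 or 4 or dosed replicate 1 or 3, and SOX9 without vehicle replicate 1, 3 or 4 or dosed replicate 1, 3 or 4. DSP lost it without vehicle replicate 1, 2 or 3 or dosed replicate 1, 3, 4 or 5, and JUP without vehicle replicate 1, 2 or 3 or dosed replicate 1, 3 or 4. At 100 and 30 mg/kg at 24 h, and at each dose at 3-6 h and 1 h, 0 genes of these lists passed in the comparison of all tumors of a dose with vehicle. In 2 of the cage groups at 3-6 h mean PKP2 was below that of all vehicle tumors together. The difference was -0.65 in cage group 5 (200 mg/kg, limma adjusted p = 0.0057) and -0.56 in cage group 7 (100 mg/kg, adjusted p = 0.0123). In each, 2 of 5 tumors were below all vehicle tumors, so the groups overlapped. VIM was higher in cage group 7 (0.22, adjusted p = 0.0367), with 4 of 5 tumors above all vehicle tumors. Of all genes, 0.276% and 1.33% passed in cage groups 5 and 7, and 0.33% between the 2 vehicle cage groups. PKP2 and VIM also differed between untreated tumors of 3-6 h and of 24 h, where 4.36% of all genes did. The differences were 0.57 (adjusted p = 0.0158) for PKP2 and -0.37 (adjusted p = 0.00108) for VIM. Against untreated tumors at 24 h, DSP, DSC3, JUP and LMNB2 passed at 200 mg/kg as well, where 8.31% of all genes did. LMNB1 (-0.47, adjusted p = 0.114) and SOX9 (0.24, adjusted p = 0.303) did not. With all 94 libraries in the fit none of the 6 passed.

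Markers of other cells are given for the 24 h tumors. In these xenografts leukocytes and fibroblasts are cells of the mouse, while the markers are human genes. The summed level of the 5 leukocyte markers was 146 to 223 FPKM in vehicle and 129 to 208 at 200 mg/kg, most of it in CD68. Over the 91 tumors PTPRC had a mean of 0.416 and LYZ of 0.0434. The 7 fibroblast markers summed to 873 to 1070 and 774 to 1420. Over the 91 tumors COL1A1 had a mean of 594 and COL1A2 of 0.0122. The 12 hair matrix markers summed to 2.87 to 4.53 in vehicle and 2.07 to 4.81 at 200 mg/kg. The 15 keratinocyte markers summed to 710 to 844 and 920 to 1316, nearly all of it KRT5 itself, and the 11 mesothelial markers, 5 of which are keratins of the family, to 3261 to 3494 and 3761 to 4640. The part of these cells in the results was not tested.

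Keratins form filaments in pairs, so the levels of listed type I and type II genes were compared across the 34 vehicle and untreated tumors. Of 8 listed pairs, 6 had both genes expressed and were compared, with permutation p-values (two-sided) adjusted over 6 pairs. KRT80 and KRT34 are among the 6 but are not taken as known filament partners. Their p-value entered the adjustment, although that pair is only described over all 34 tumors. The 34 tumors come from 3 studies, and p-values over all of them do not set differences between studies or between cage groups apart. KRT8 and KRT18 moved together (Pearson r = 0.846, Spearman rho = 0.742, permutation p = 1e-05 each, adjusted 2e-05 and 3e-05), as did KRT5 and KRT14 (r = 0.797, rho = 0.784, permutation p = 1e-05 each, adjusted 2e-05 and 3e-05). The p of 1e-05 is the smallest that the resamples can give. Without the 2 tumors farthest from the median of the first gene, r was 0.769 and 0.810. Within the studies of 1 h, 3-6 h and 24 h, r was 0.856, 0.914 and 0.902 for KRT8 and KRT18 and 0.975, 0.906 and 0.811 for KRT5 and KRT14. The loci of KRT8 and KRT18 overlap, and tumors share a library scale, whose part was not tested.

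KRT7 and KRT19 gave r = 0.565 and rho = 0.532 (permutation p = 0.0005 and 0.00146, adjusted 0.00075 and 0.00219), and 0.529 without the 2 farthest tumors. This did not hold in every study, with r of -0.117 at 1 h, 0.584 at 3-6 h and 0.605 at 24 h. KRT6A and KRT16 gave r = 0.117 and rho = 0.0992 (permutation p = 0.512 and 0.578, adjusted alike), with 0.0821 without the farthest 2 and 0.685, 0.00759 and -0.472 within studies. KRT6A and KRT17 gave r = 0.385 and rho = 0.277 (permutation p = 0.0251 and 0.113, adjusted 0.0301 and 0.136), so r passed and rho did not. Without the 2 farthest tumors r was 0.315 and no longer passed (adjusted permutation p = 0.0956). Within studies it was 0.457, 0.279 and -0.0596.

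KRT80 and KRT34 are given separately, because the vehicle tumors of 24 h took part in the choice of KRT34. The pair is a type II and a type I keratin not taken as known filament partners. Over the 34 control tumors r was -0.732 and rho -0.694, and r was -0.719 without the 2 farthest tumors, as a description with no test. The studies differed in both genes in opposite directions: KRT34 had a control mean of 8.83 FPKM at 3-6 h and 22.9 at 24 h, and KRT80 42.5 and 35.2. Within the 3-6 h study r was -0.800 and rho -0.761 (n = 15, permutation p = 0.00035 and 0.00165, adjusted 0.0007 and 0.0033). These 15 tumors come from the untreated cage group and 2 vehicle cage groups, which the permutations did not set apart. Between the 2 vehicle cage groups KRT80 was at an unadjusted p under 0.05 in limma and did not pass. Within the 1 h study r was -0.569 and rho -0.539 (n = 10, permutation p = 0.0869 and 0.113, adjusted 0.130 and 0.136) and did not pass. Within the 24 h study r was -0.641 (n = 9), given with no test. In the 2 tested studies r was negative, and 1 of the 2 tests passed. The 24 h value is not counted here, since its vehicle tumors took part in the choice of KRT34. KRT80 ran from 28.4 to 54.1 FPKM over these tumors and KRT34 from 4.04 to 38.8.

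**Figure D5:**
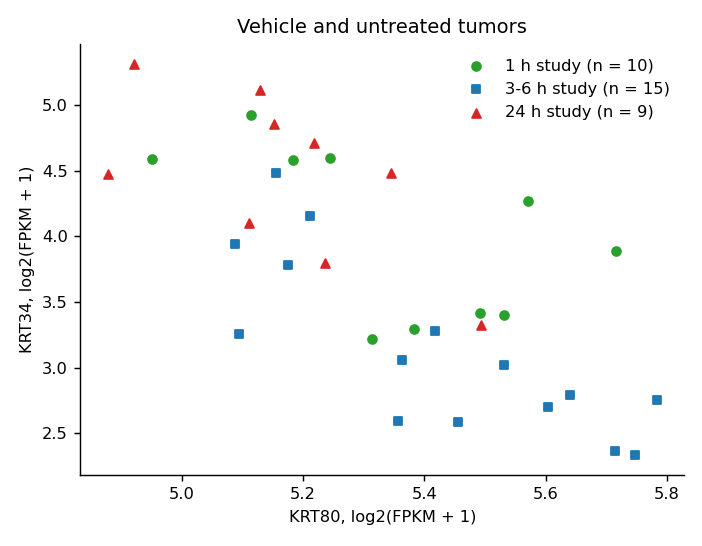
KRT80 against KRT34, both in log2(FPKM + 1), in the 34 vehicle and untreated tumors, with 1 point per tumor, marked by study. Tumors with more KRT80 had less KRT34 (r = -0.732), with r of -0.569, -0.800 and -0.641 within the studies of 1 h, 3-6 h and 24 h.

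The genes most like KRT34 over the means of the 19 groups, by Pearson r, were KISS1 (0.948), UAP1 (0.942), ACTN1 (0.942), TGFBR1 (0.936) and SLC7A1 (0.934). These group means share libraries and controls, and the 24 h values that drew attention to KRT34 are among them. The log2 differences of the 5 genes from vehicle at 24 h after 200 mg/kg were -1.51, -0.93, -0.54, -0.82 and -0.49. These are a description only, since a likeness to KRT34 already counts its fall at 24 h. Among keratins the closest were KRT33B (0.837), KRT17 (0.772), KRT6A (0.767) and KRT14 (0.650), and the most opposite KRT86 (-0.766), KRT19 (-0.732) and KRT7 (-0.672). KRT33B shares sequence with KRT34, and the part of shared fragments in its r was not tested.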

How the data were processed

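Tumors were kept in RNAlater, RNA was extracted with miRNeasy, and libraries were prepared with KAPA RNA HyperPrep, enriched with HyperCap probes and run on a NextSeq 500 (paired-end). The deposited values were taken as FPKM, computed by the authors. The table header does not name the unit, and the values are decimals whose sums differ between libraries. STAR and GRCh38 appear in the submitters' processing notes. The quantifier, annotation, and the handling of mouse and of shared reads are not given in the sources used here. The capture depth limits low values, and FPKM allow no counting intervals.

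Of 20555 entries, 284 gene IDs had more than 1, and the entry of the highest mean was kept (316 left out). Blank cells (32) were read as 0. Groups came from the labels. Replicates are tumors listed as separate samples, numbered only within a group. The limma p-values rest on the spread between tumors within groups, pooled over all 19 groups and adjusted by empirical Bayes. They do not measure a spread between cages at 1 h and 24 h. The test was limma 3.58.1 (R 4.3.3; trend and robust empirical Bayes) on log2(FPKM + 1), 1 coefficient per group for 19 groups, 91 libraries. At 3-6 h the mean of 2 cage groups was compared with that of the 2 vehicle cage groups. The fit was tested on simulated data. A log2 difference of FPKM + 1 understates changes of low genes. Partner pairs used 100000 resamples or, with fewer than 10 tumors, all permutations (scipy 1.17.1, numpy 2.4.6). The limit of 10000 genes for a library was set with its values known.

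Members and lists were chosen with earlier results of these data known. Named were all keratins with a mean FPKM of at least 1, keratins past the threshold, up to 4 called genes per list, and the 5 genes most like KRT34 over group means. Values of further keratins and genes were chosen after they were seen. Sequences are from RefSeq (GRCh38.p14) and GENCODE 29. Per-library columns not used numbered 0. Alternatives were all 94 libraries, the groups of 1 study, a pseudocount of 0.1, no filter, quantile and size-factor scaling, untreated controls, single cage groups and leaving out 1 library.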

Additional observations from a re-analysis of the deposited data

Results flagged for a closer look

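Single tumors far from the rest of their group were found in 21 of 210 groups of 4 to 10 tumors (14 keratins), or 10%. Independent and normally distributed values would give about 1 in 20. Most flagged values were high, and the keratins were measured in the same tumors, so no excess over chance is read from this. The gap to the nearest tumor exceeded the critical share of the range of the group in each of the following, with values in FPKM.

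Untreated replicate 3 of the 3-6 h study was highest in 4 keratins: KRT5 at 1461 (others up to 903), KRT19 at 604 (others up to 468), KRT14 at 31.7 (others up to 8.95) and KRT10 at 5.58 (others up to 3.31). At 100 mg/kg and 3-6 h, cage group 7 replicate 5 was highest in KRT17 at 64.7 (others up to 22.8) and KRT14 at 18.5 (others up to 8.43). At 30 mg/kg, replicate 2 of 1 h was highest in KRT14 at 29.4 and KRT15 at 5.77, and replicate 4 of 24 h was highest in KRT19 at 544 and KRT14 at 21.3. KRT34 was high in 200 mg/kg replicate 3 at 1 h at 21.2, in 200 mg/kg cage group 4 replicate 3 at 3-6 h at 20.7, in 200 mg/kg replicate 2 at 24 h at 13.0 and in 100 mg/kg replicate 4 at 24 h at 19.0. Further high values were KRT18 at 805 (100 mg/kg, 3-6 h, cage group 6 replicate 2), KRT17 at 24.7 (200 mg/kg, 24 h, replicate 2), KRT6A at 23.4 and KRT10 at 11.7 (30 mg/kg, 3-6 h, cage group 8 replicates 3 and 4) and KRT15 at 2.53 (untreated, 1 h, replicate 5). Far low values were KRT7 at 374 (vehicle, 24 h, replicate 4, others 431 to 435) and KRT19 at 381 (200 mg/kg, 1 h, replicate 2, others up to 479).

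The effect of 200 mg/kg on KRT6A differed between 24 h and 3-6 h by -1.20 on the log2 scale (limma adjusted p = 0.0357). Time and study cannot be told apart here.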

How the results depend on the processing

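No paired analysis was possible because the labels give no replicate numbers and no animal or batch that tumors of different groups share. The number of keratins called at 24 h after 200 mg/kg, KRT34 aside, was 2 with 91 libraries, 0 with all 94 libraries, 1 with the groups of that study alone and 1 against untreated tumors, and 0 to 2 on leaving out 1 library. At 100 mg/kg and 24 h it was 0, and 1 against untreated tumors, and at 30 mg/kg and 24 h 0, and 3 with all 94 libraries, where a library with few genes enters. The other counts were 0 under each alternative. All genes called at 24 h after 200 mg/kg numbered 966, 513 with the groups of that study alone and 0 with all 94 libraries. Of the genes of the other lists, DSP did not pass with quantile scaling (adjusted p = 0.0561), and DSP, SOX9 and DSC3 did not with the groups of that study alone. KRT34 did not pass at 1 h or 3-6 h under any alternative. Its direction turned against untreated tumors at 200 mg/kg (0.13) and 30 mg/kg (0.079) at 3-6 h and at 200 mg/kg at 1 h (0.26). Leaving out 1 library gave -0.38 to -0.07, -0.58 to -0.29 and -0.35 to -0.13 at 200, 100 and 30 mg/kg at 3-6 h, and -0.65 to -0.27, 0.09 to 0.57 and -0.19 to 0.21 at 1 h, the last reversed without vehicle replicate 1 or 30 mg/kg replicate 1 or 4. For the pairs, r within studies went past or below the limit for KRT7 and KRT19 (-0.117 at 1 h, reversed, and 0.605 at 24 h) and for KRT6A and KRT16 (0.685 at 1 h, and -0.472 at 24 h, reversed) and for KRT6A and KRT17 (0.457, 0.279, and -0.0596 at 24 h, reversed, and 0.315 without the 2 farthest tumors) with fewer tumors in each. For KRT80 and KRT34 r was -0.569 at 1 h and -0.641 at 24 h, smaller than over all control tumors. The cause of the other changes was not tested.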
